A study of Mus musculus with 6 samples.

Results

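Open chromatin was described at the nuclear genes for the subunits of the respiratory chain and ATP synthase in activated mouse CD8+ T cells. The members were all peaks whose summit had, as its nearest protein-coding gene, inside it or within 100 kb, a gene with a symbol beginning Ndufa, Ndufb, Ndufc, Ndufs, Ndufv, Uqcr, Cox4 to Cox8 or Atp5, or one of Sdha, Sdhb, Sdhc and Sdhd. Assembly factors were left out. The rule took 1404 of the 573921 peaks of 6 libraries and 88 of 21883 protein-coding genes, and it used position and gene symbol alone.

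The assay was ATAC-seq, which marks accessible DNA by the sites where a transposase can insert sequencing adapters. CD8+ T cells from mouse spleen, isolated by removal of other cells and activated with antibodies against CD3 and CD28, shared a transwell with tumour cells for 48 h, the T cells below and the tumour cells in the upper insert. The tumour cells were a PD-1-resistant lung adenocarcinoma line with a short hairpin knockdown of Fabp7 (Res-shFabp7, 3 libraries) or its control (Res-ctrl, 3 libraries), and the labels describe the 3 libraries of a group as biological replicates. The product of Fabp7 binds fatty acids inside cells. Because only the tumour cells carried the hairpin, the knockdown cannot be read from libraries of T cells. The labels used here give neither strain, sex nor age of the mice. The comparison asks whether T cell chromatin depended on which tumour cells shared the transwell.

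The respiratory chain passes electrons from NADH through complex I, or from succinate through complex II, to complex III and then to complex IV, which reduces oxygen. Complex V, the ATP synthase, makes ATP from the proton gradient that complexes I, III and IV build. T cells that are activated make more mitochondria, and memory CD8+ T cells rely strongly on oxidative phosphorylation. Most subunits are encoded in the nucleus, and many of their promoters are known targets of the factors NRF1, GABP, YY1 and the oestrogen-related receptor ESRRA.

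Promoter sequences of 6 members are shown first, because they span what the libraries showed at these genes. A promoter is here the 300 bases from 250 before to 50 after a gene's RefSeq start, in GRCm38.p6 (the mm10 assembly), read 5′ to 3′ in the direction of the gene. Capitals mark GCATGCG (the core of the NRF1 site), CCGGAAG (an ETS and GABP site), AAGATGG (a YY1 site) and GGGCGG (an SP1 site), on either strand, and matches on both strands can overlap. Ndufs8 (chr19:3912725-3913024, minus strand) had the highest promoter peak of all members. Atp5j (chr16:84834927-84835226, minus strand) and Sdhb (chr4:140961021-140961320, plus strand) each hold 3 kinds of these motifs in an open promoter. Ndufa10 (chr1:92473709-92474008, minus strand) was the only member with a called difference in height between the groups. Cox6b1 (chr7:30626065-30626364, minus strand) had the lowest promoter peak that was called in all 6 libraries, and Cox8b (chr7:140900397-140900696, minus strand) had none.
Ndufs8: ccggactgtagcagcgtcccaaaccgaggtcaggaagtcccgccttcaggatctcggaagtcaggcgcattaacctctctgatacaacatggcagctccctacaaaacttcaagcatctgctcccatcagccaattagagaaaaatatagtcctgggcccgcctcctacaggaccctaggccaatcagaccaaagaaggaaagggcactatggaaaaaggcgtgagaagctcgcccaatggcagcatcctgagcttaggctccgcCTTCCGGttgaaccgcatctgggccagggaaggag
Atp5j: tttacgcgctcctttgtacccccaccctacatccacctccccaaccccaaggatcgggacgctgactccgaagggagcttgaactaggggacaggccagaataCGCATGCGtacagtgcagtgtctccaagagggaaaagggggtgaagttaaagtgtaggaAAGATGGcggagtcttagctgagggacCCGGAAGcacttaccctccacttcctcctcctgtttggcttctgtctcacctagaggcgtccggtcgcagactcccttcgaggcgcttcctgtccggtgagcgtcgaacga
Sdhb: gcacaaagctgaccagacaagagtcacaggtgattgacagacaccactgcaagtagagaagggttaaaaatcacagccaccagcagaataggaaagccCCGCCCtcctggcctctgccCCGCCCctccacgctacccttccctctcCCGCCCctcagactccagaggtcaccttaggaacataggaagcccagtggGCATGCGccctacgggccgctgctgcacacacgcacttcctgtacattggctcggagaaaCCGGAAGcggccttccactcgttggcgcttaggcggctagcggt
Ndufa10: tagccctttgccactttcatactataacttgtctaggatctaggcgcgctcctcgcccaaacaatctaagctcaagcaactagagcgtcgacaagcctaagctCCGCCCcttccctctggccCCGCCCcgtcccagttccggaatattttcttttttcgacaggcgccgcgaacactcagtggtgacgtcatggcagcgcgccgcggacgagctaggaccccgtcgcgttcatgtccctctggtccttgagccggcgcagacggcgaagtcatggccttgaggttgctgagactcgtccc
Cox6b1: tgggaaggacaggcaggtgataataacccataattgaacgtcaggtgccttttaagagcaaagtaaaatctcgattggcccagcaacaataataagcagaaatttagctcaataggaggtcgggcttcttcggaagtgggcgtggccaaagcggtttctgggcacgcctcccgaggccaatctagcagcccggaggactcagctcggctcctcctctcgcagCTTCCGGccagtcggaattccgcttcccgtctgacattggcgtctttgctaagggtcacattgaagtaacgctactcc
Cox8b: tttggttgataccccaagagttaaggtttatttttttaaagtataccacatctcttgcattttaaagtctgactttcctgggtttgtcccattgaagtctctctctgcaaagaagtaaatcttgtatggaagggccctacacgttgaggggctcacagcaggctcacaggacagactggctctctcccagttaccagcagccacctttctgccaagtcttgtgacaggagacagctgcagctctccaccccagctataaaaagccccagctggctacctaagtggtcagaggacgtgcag

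Nearly all respiratory chain promoters were open with either tumour line. A promoter in the RefSeq table was found for 71 of the 88 genes, and 67 of these (94.4%) had a peak in all 6 libraries, against 8832 of 17491 genes (50.5%) over the whole table. In single libraries, 68, 68 and 67 of the 71 promoters had a peak with Res-shFabp7 and 68, 68 and 68 with Res-ctrl. The exceptions were Cox7b2, Cox8b and Ndufb4b, with no promoter peak in any library, and Ndufa13, a complex I subunit, whose peak in Res-shFabp7 replicate 3 ended short of the window. Pileup in the Ndufa13 window was 134 and 123 in Res-shFabp7 replicates 1 and 2 and 115, 95 and 149 in the Res-ctrl libraries. When every peak within 1 kb of a gene was counted, whichever gene it was assigned to, 81 of the 88 genes had a peak in all 6 libraries, Cox4i2 had one in 4, and Cox6a2, Cox7b2, Cox8b, Cox8c, Ndufb4b and Ndufb4c had none.

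The open promoters were also among the taller peaks of the libraries. Height is given as pileup, the authors' fragment coverage at the summit, and as its percentile among the 56610 regions with a peak in all 6 libraries (shared regions). The percentile is unchanged if all pileups of a library are scaled, but depth can still affect ties and low pileups. The median promoter of the 67 stood at percentile 88.9, 89.0 and 88.8 with Res-shFabp7 and at 89.8, 89.3 and 89.2 with Res-ctrl. The base is shared regions of every place, and the same value for open promoters of all genes is not given here. The range was wide. Ndufs8, a core subunit of complex I that holds iron-sulphur clusters, had a pileup of 516, 483 and 533 with Res-shFabp7 and 425, 404 and 555 with Res-ctrl, a mean percentile of 99.8. Atp5g1, which encodes subunit c of the ATP synthase ring, had 541, 469 and 518 with Res-shFabp7 and 406, 367 and 534 with Res-ctrl. At the low end, Cox6b1, a complex IV subunit, had 22, 24 and 21 with Res-shFabp7 and 20, 7 and 26 with Res-ctrl, a mean percentile of 20.4. At each of these genes the pileups of the groups overlapped, and Res-ctrl replicates 1 and 2 were the low ones. These 2 libraries also had the lowest background pileup, a relative measure of depth given further on. The part of depth was not tested.

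**Figure D1:**
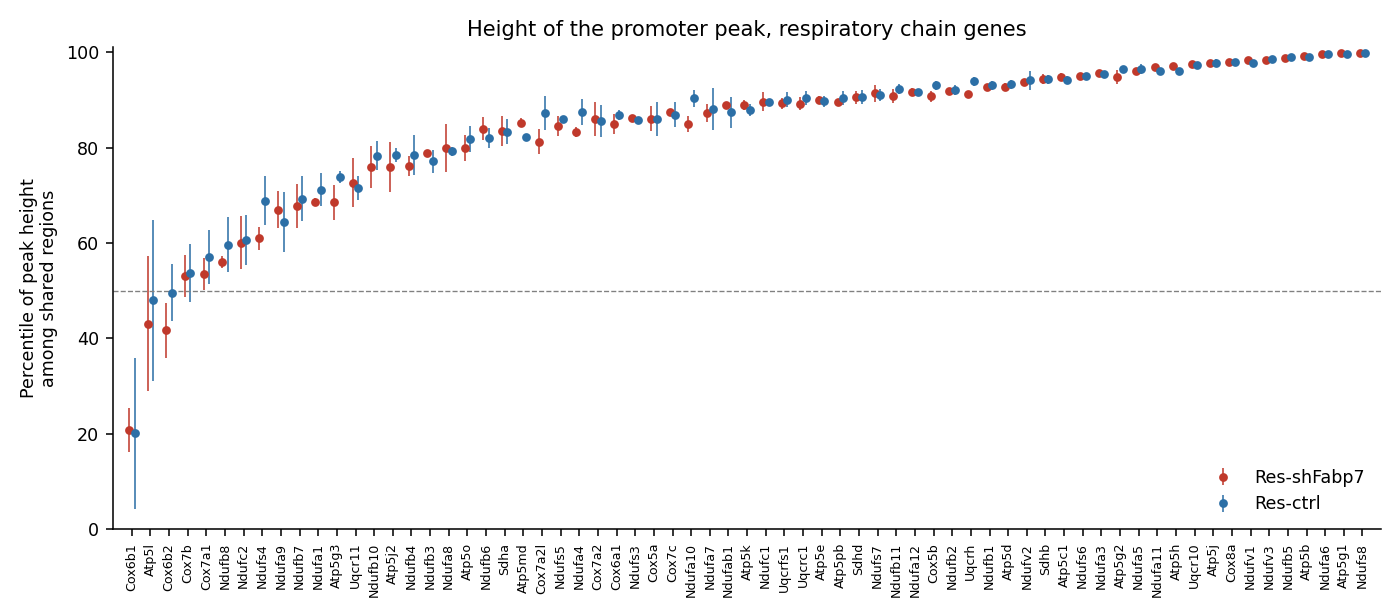
Promoter peak height of 67 respiratory chain genes, as percentile among the shared regions (vertical axis), by gene in rising order; points are means and bars SD over 3 libraries, Res-shFabp7 left of Res-ctrl, and the dashed line is the 50th percentile. Cox6b1 is lowest at a mean percentile of 20.4 and Ndufs8 highest at 99.8, and the groups lie close together at most genes.

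Many of these promoters were shared with a neighbour. In 19 of the 71 genes (26.8%) another protein-coding gene started on the opposite strand within 1 kb upstream, against 1483 of 17491 genes (8.48%) in the whole table. Atp5j, which encodes a subunit of the ATP synthase stalk, started 148 bp from Gabpa, which encodes the DNA-binding subunit of GABP. The region there had a pileup of 317, 305 and 324 with Res-shFabp7 and 238, 231 and 408 with Res-ctrl. Sdhd started 52 bp from Timm8b, a mitochondrial import chaperone, and Ndufs3 19 bp from Kbtbd4. Ndufa7 started 10 bp from Rps28, a ribosomal protein gene. A peak between such starts cannot be given to 1 gene: for Atp5j and Uqcr10 the shared region was assigned to Gabpa and Zmat5, and these genes have promoter peaks but no region of their own.

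Motif content differed from that of open promoters in general, as a description of 300-base windows with no test. Among the 67 open member promoters, GCATGCG was found in 11 (16.4%), against 7.84% of the 8832 open promoters of all genes. AAGATGG was also found in 11 (16.4%, against 8.31%), and AAGGTCA, the ESRRA half-site, in 8 (11.9%, against 2.88%). CCGGAAG stood in 17 (25.4%, against 22.4%) and CCAAT, the NFY site, in 28 (41.8%, against 41.8%), shares close to those of all open promoters. GGGCGG was less frequent, in 27 (40.3%) against 71.4%, and the median GC content was 58.0% against 62.0%. TATAAA, the TBP site, was found in 6 (8.96%, against 6.30%). The genes with GCATGCG were Atp5g2, Atp5j, Atp5k, Atp5l, Cox6a1, Ndufa6, Ndufa8, Ndufa11, Sdhb, Uqcr11 and Uqcrc1, from all 5 complexes. Those with AAGGTCA were Atp5e, Atp5g3, Atp5k, Atp5l, Ndufb2, Ndufb4, Ndufs5 and Sdhd. The Cox8b window printed above holds none of the capitalised motifs and has a TATAAA. A match in such a window is not a bound site.

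**Figure D2:**
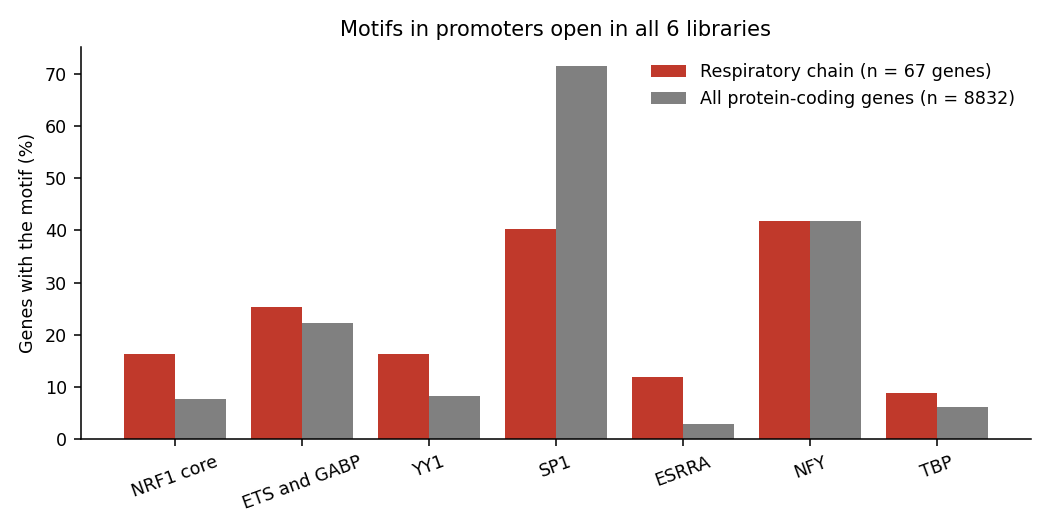
Share of promoters with each motif (vertical axis, percent of genes) among promoters with a peak in all 6 libraries, for 67 respiratory chain genes and for 8832 genes of the whole table; the horizontal axis names the factor or element. The members stand above all open promoters for NRF1, YY1 and ESRRA, below them for SP1 and level with them for NFY.

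T cells beside Res-shFabp7 tumour cells had more called peaks at respiratory chain genes, and not a larger share of their peaks. The Res-shFabp7 libraries had 243, 249 and 247 such peaks and the Res-ctrl libraries 219, 214 and 232. Every Res-shFabp7 count was above every Res-ctrl count, with means of 246 ± 3.06 and 222 ± 9.29 (SD, n = 3 each). The whole lists differed the same way, with 100243 to 105796 peaks with Res-shFabp7 and 82153 to 96310 with Res-ctrl. Per 1000 peaks of a library there were 2.32, 2.35 and 2.46 with Res-shFabp7 and 2.58, 2.60 and 2.41 with Res-ctrl, and the groups overlapped. The share averaged 2.38 ± 0.0739 in the Res-shFabp7 libraries and 2.53 ± 0.107 in the Res-ctrl libraries (SD, n = 3 each), a difference of -0.151 per 1000. With each list cut to the same number of peaks the shares averaged 2.53 ± 0.0186 for the Res-shFabp7 libraries and 2.59 ± 0.0322 for the Res-ctrl libraries (SD, n = 3 each), a smaller difference of -0.0649, and the groups then did not overlap. As a relative measure of depth, the most frequent background pileup of a list was 1.03, 0.868 and 0.959 with Res-shFabp7 and 0.709, 0.608 and 1.01 with Res-ctrl. The 2 lowest were Res-ctrl libraries, the groups overlapped, and the part of depth in the peak counts was not tested. Against Res-ctrl replicate 3 alone, the Res-ctrl library whose background was closest to theirs, the Res-shFabp7 share differed by -0.0285 per 1000. Per 1000 peaks within 1 kb of a gene end, a different base, the share was 5.73 ± 0.0957 for Res-shFabp7 and 5.76 ± 0.178 for Res-ctrl (SD, n = 3 each), and the groups overlapped.

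The additional peaks lay mostly away from gene ends. Within 1 kb of a gene end, member genes had 118, 123 and 118 peaks with Res-shFabp7 and 111, 118 and 120 with Res-ctrl, which overlap. These made up 47.8% to 49.4% of member peaks with Res-shFabp7 and 50.7% to 55.1% with Res-ctrl. Among all peaks the share was 20.1% to 20.4% with Res-shFabp7 and 21.2% to 24.5% with Res-ctrl. By complex, complex I genes had 109, 115 and 111 peaks with Res-shFabp7 and 98, 93 and 106 with Res-ctrl, and complex III genes had 34, 30 and 28 with Res-shFabp7 and 26, 25 and 26 with Res-ctrl. Neither pair of groups overlapped, and neither did the whole lists, with 100243 to 105796 peaks with Res-shFabp7 and 82153 to 96310 with Res-ctrl. These counts by complex are not shares of the lists. Uqcrfs1 alone had 18, 17 and 18 of the complex III peaks with Res-shFabp7 and 14, 12 and 14 with Res-ctrl, and without it complex III had 16, 13 and 10 with Res-shFabp7 and 12, 13 and 12 with Res-ctrl, which overlap. Complex II had 12, 12 and 11 with Res-shFabp7 against 11, 11 and 10 with Res-ctrl, and complex IV had 40, 44 and 44 against 35, 38 and 41. Complex V had 48, 48 and 53 with Res-shFabp7 and 49, 47 and 49 with Res-ctrl. The groups of complexes II, IV and V overlapped.

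**Figure D3:**
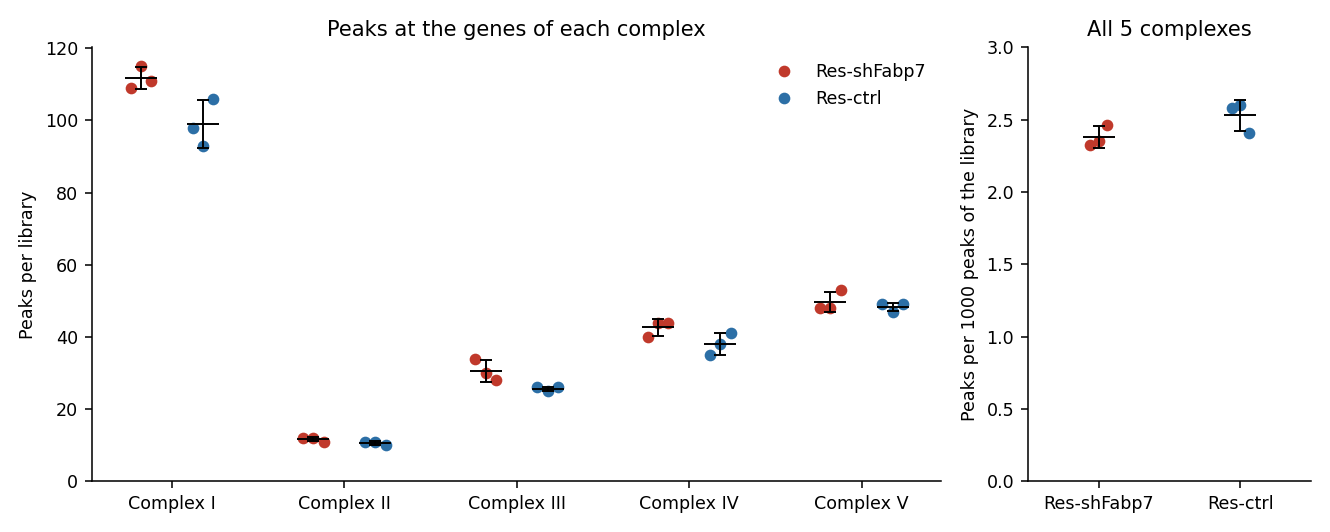
Peaks assigned to the genes of each complex in every library (left, peaks per library) and respiratory chain peaks per 1000 peaks of the library (right); points are libraries, bars mean and SD of 3, Res-shFabp7 left of Res-ctrl. Complex I has 109 to 115 peaks with Res-shFabp7 and 93 to 106 with Res-ctrl, while the shares per 1000 overlap.

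Overlapping peaks of the 6 lists merged into 294 regions at 81 of the 88 genes. Of these, 148 (50.3%) were shared by all 6 libraries, against 42.2% of all 134174 regions, and 77 genes (87.5%) had at least 1 shared region, against 63.5% of all genes. The median member gene had 2 regions and was 7154 bp long, against 3 regions and 17170 bp over all genes. Regions within 1 kb of a gene end made up 44.2% of member regions and 17.6% of all regions with a gene, and 58.5% of these member regions were shared, close to the 60.1% over all genes. No region was assigned to Ndufb9, Ndufb4b, Ndufb4c, Cox7b2, Cox8c, Atp5j or Uqcr10. A peak did stand beside Ndufb9, with a highest pileup of 160, 132 and 146 with Res-shFabp7 and 112, 104 and 191 with Res-ctrl, and it was assigned to the neighbouring Tatdn1.

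In complex I, the NADH dehydrogenase, core subunit genes differed in height. Ndufv1, which binds NADH and the flavin, had a promoter pileup of 343, 347 and 359 with Res-shFabp7 and 248, 235 and 367 with Res-ctrl. Ndufs1, the largest core subunit, had a region at an end of the gene of 154, 151 and 157 with Res-shFabp7 and 181, 147 and 171 with Res-ctrl. At both genes the pileups overlapped. By percentile the groups did not overlap at Ndufv1, with 98.1, 98.6 and 98.4 with Res-shFabp7 and 97.3, 97.9 and 98.0 with Res-ctrl (limma adjusted p = 0.260). This direction without overlap was found at 11.6% of all shared regions. Among further core genes, Ndufs3 had 150, 134 and 144 with Res-shFabp7 and 111, 100 and 152 with Res-ctrl, Ndufs7 had 170, 190 and 202 against 148, 141 and 188, and Ndufv2 had 219, 214 and 218 against 202, 138 and 265. Pileups overlapped at these genes as well, with the lowest value in Res-ctrl replicate 2. Among the other complex I genes, Ndufb4b and Ndufb4c had no peak, and Ndufs4, a subunit whose loss causes a Leigh-like disease in mice, had a low promoter peak of 64, 52 and 59 with Res-shFabp7 and 65, 42 and 83 with Res-ctrl. By percentile Ndufs4 was lower without overlap, with 63.1, 58.3 and 61.5 with Res-shFabp7 and 73.3, 63.2 and 70.2 with Res-ctrl (limma adjusted p = 0.221). That direction was found at 11.2% of all shared regions.

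Complex II, succinate dehydrogenase, has 4 subunits, and all 4 genes had a shared region. Sdhb, the iron-sulphur subunit, had a promoter pileup of 225, 242 and 216 with Res-shFabp7 and 171, 166 and 265 with Res-ctrl. Sdha, the flavoprotein subunit, had 139, 132 and 109 with Res-shFabp7 and 100, 78 and 155 with Res-ctrl. Sdhd, a membrane anchor, had 190, 179 and 166 with Res-shFabp7 and 139, 141 and 187 with Res-ctrl. Sdhc, the other anchor, had a region at an end of the gene of 135, 127 and 128 with Res-shFabp7 and 148, 94 and 162 with Res-ctrl. The pileups overlapped at all 4 genes.

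In complex III, Uqcrc2, a core protein, had a region at an end of the gene with a pileup of 222, 209 and 226 with Res-shFabp7 and 175, 124 and 236 with Res-ctrl. The region at an end of Uqcrb, the ubiquinone-binding protein, had 129, 107 and 98 with Res-shFabp7 and 82, 82 and 110 with Res-ctrl. The pileups overlapped at both genes. Uqcrfs1, the Rieske iron-sulphur protein, had 23 regions, more than any other member, and is described further on.

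Complex IV, cytochrome c oxidase, has subunits with alternative isoforms, and the ubiquitous isoform had the taller peaks for every such subunit but 6b. Cox4i1 had a region at an end of the gene with a pileup of 129, 136 and 120 with Res-shFabp7 and 114, 99 and 164 with Res-ctrl, whereas Cox4i2, the isoform known from lung, had 3 regions, each in 2 libraries. Cox6a1 had 139, 142 and 122 with Res-shFabp7 and 117, 110 and 154 with Res-ctrl, while the heart and muscle isoform Cox6a2 had 1 shared region, 2019 bp outside the gene, of 26, 9 and 17 with Res-shFabp7 and 14, 15 and 12 with Res-ctrl. Cox8a had 354, 304 and 330 with Res-shFabp7 and 268, 259 and 342 with Res-ctrl. Its muscle isoform Cox8b had no promoter peak in any library but 2 shared regions outside the gene, and the testis isoform Cox8c had no peak.

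Cox7a1, the heart and muscle isoform of subunit 7a, had an open promoter in all 6 libraries, of 53, 42 and 50 with Res-shFabp7 and 39, 30 and 65 with Res-ctrl. That was below Cox7a2, the liver-type isoform, with 148, 115 and 167 with Res-shFabp7 and 121, 82 and 167 with Res-ctrl. Cox6b2, known from testis, had 33, 37 and 40 with Res-shFabp7 and 35, 31 and 39 with Res-ctrl. In every library it was above its ubiquitous counterpart Cox6b1, whose values are given above. Cox7b had 56, 42 and 46 with Res-shFabp7 and 38, 36 and 43 with Res-ctrl, and Cox7b2 had no peak.

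In complex V, 3 genes encode the same mature subunit c of the rotor ring, and all were open at unlike heights. Atp5g1 stood highest, as given above. Atp5g2 had 269, 225 and 214 with Res-shFabp7 and 210, 200 and 323 with Res-ctrl, and Atp5g3 had 71, 80 and 67 with Res-shFabp7 and 69, 61 and 90 with Res-ctrl. The order Atp5g1, Atp5g2, Atp5g3 held in all 6 libraries. Atp5b, the catalytic beta subunit, had 429, 401 and 446 with Res-shFabp7 and 324, 265 and 442 with Res-ctrl. Pileups overlapped at each of these 4 genes. By percentile the groups did not overlap at Atp5b, with 99.3, 99.3 and 99.3 with Res-shFabp7 and 99.0, 98.6 and 99.1 with Res-ctrl (limma adjusted p = 0.181). This direction without overlap was found at 11.6% of all shared regions.

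Few member regions were called with 1 group only. A region called only with Res-shFabp7 had a peak in 3 of 3 Res-shFabp7 libraries and in 0 of 3 Res-ctrl libraries. This held for 3 of 294 member regions (1.02%), against 2.28% of all regions. None was called only with Res-ctrl, against 0.155% of all regions. All 3 were small. Inside Cox6b1 (chr7:30619308-30619471) the pileup was 11, 8 and 13 with Res-shFabp7, and inside Cox7a2 (chr9:79767487-79767669) it was 11, 8 and 16. The third lay 21544 bp outside Ndufa12, a complex I accessory subunit (chr10:94242901-94243075), with 12, 14 and 14 with Res-shFabp7. The 2 regions in Cox6b1 and Cox7a2 were not called when each list was cut to the same number of peaks. Without 1 library the count was 6, 7 and 6 (without Res-shFabp7 replicate 1, 2 or 3), 6 and 5 (without Res-ctrl replicate 1 or 2) and 13 without Res-ctrl replicate 3. Leaving out a library loosens the rule, so these counts tend to rise and the 3 regions tend to stay in them. The counts are therefore no check of the 3 regions. As a share of member regions these counts were 1.70% to 4.50%, and over all regions the same omissions gave 2.93% to 5.34%. With equal numbers of peaks the count was 3, or 1.21% of member regions against 1.13% of all.

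The heights of the shared regions were compared next. Within each library the pileups of the 56610 shared regions were ranked and turned into normal scores, which removes a scaling of all pileups by depth. Depth can still affect ties and noise at low pileups and which regions were called. Groups were compared by limma with Benjamini-Hochberg adjustment over all of these regions. A difference of 1 in normal score is 1 SD of the scores of a library. At an adjusted p under 0.05, 1 of 148 member regions (0.676%) was called, against 3.91% of all shared regions, and it was lower with Res-shFabp7 (1.19% of all were called lower and 2.72% higher). At an unadjusted p under 0.05 there were 19 (12.8%, against 19.1%). The median difference was -0.0146 for members and -0.0105 for all, and the middle 50% of members lay between -0.0922 and 0.0794, against -0.147 and 0.132 for all. The groups did not overlap, higher with Res-shFabp7, at 14 member regions (9.46%, against 11.6% of all), and lower at 10 (6.76%, against 11.2%).

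**Figure D4:**
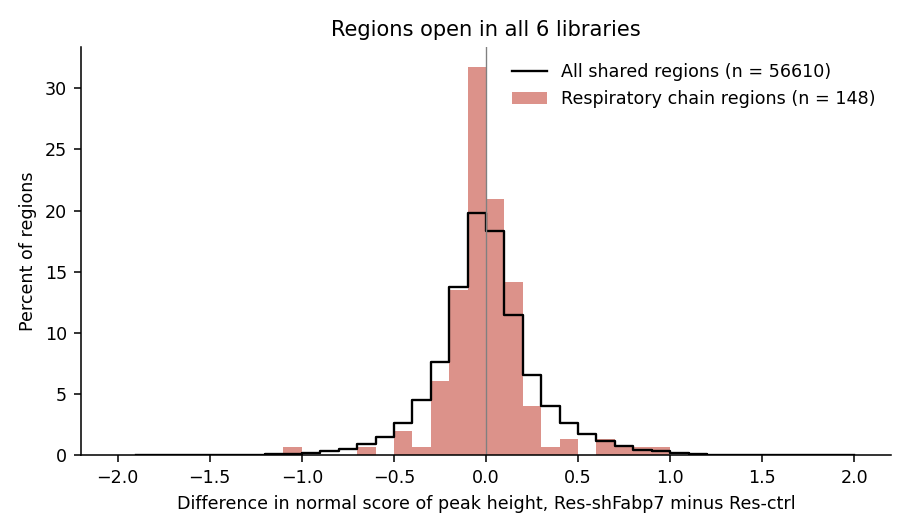
Differences in normal score of peak height, Res-shFabp7 minus Res-ctrl (horizontal axis), as percent of regions per bin of 0.1 (vertical axis), for 148 respiratory chain regions (bars) and all 56610 shared regions (line). The bars are centred near 0, with a median of -0.0146, and are narrower than the line.

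The called region was the promoter of Ndufa10 (chr1:92473694-92474524), an accessory subunit of complex I whose promoter sequence is printed above. It had a pileup of 127, 140 and 135 with Res-shFabp7 and 143, 140 and 177 with Res-ctrl. As a percentile it stood at 83.2, 86.6 and 84.9 with Res-shFabp7 and at 90.4, 92.1 and 88.6 with Res-ctrl, and these did not overlap. The difference in normal score was -0.272 (SE 0.0716, limma adjusted p = 0.0225). The call was lost without Res-ctrl replicate 1 (limma adjusted p = 0.0614), Res-ctrl replicate 2 (0.118), Res-shFabp7 replicate 1 (0.143) or Res-shFabp7 replicate 3 (0.0800). With the authors' fold as the height it was not called either (limma adjusted p = 0.186), but that setting called 0 of all 56610 shared regions. Leaving out 1 library gave 0 to 6 called member regions, and 6 without Res-ctrl replicate 3 (4.05%, against 5.00% of all shared regions).

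The largest differences among members, in either direction, missed the threshold. The largest was negative, 30993 bp outside Ndufb4, an accessory subunit of complex I (chr16:37685238-37685424), where the pileup was 16, 9 and 10 with Res-shFabp7 and 16, 12 and 21 with Res-ctrl, a difference of -1.07 (limma adjusted p = 0.0652). In an intergenic stretch 26765 bp outside Ndufa12 (chr10:94248111-94248583) the pileup was 26, 17 and 28 with Res-shFabp7 and 7, 8 and 17 with Res-ctrl, a difference of 0.922 (limma adjusted p = 0.0919). A Uqcrfs1 region, described with that gene, had a difference of 0.896. Inside Ndufab1, the mitochondrial acyl carrier protein (chr7:122094652-122094856), it was 27, 28 and 34 with Res-shFabp7 and 14, 7 and 23 with Res-ctrl, a difference of 0.781 (limma adjusted p = 0.0932). By normal score the groups did not overlap at the regions of Ndufb4, Ndufa12 and Ndufab1, although the lowest Res-shFabp7 pileup and the highest Res-ctrl pileup near Ndufa12 were both 17. The regions of Ndufa12 and Ndufab1 passed without Res-ctrl replicate 3, with limma adjusted p = 0.0415 and 0.0368. Cox7a2l, which is known as a supercomplex assembly factor, had a promoter pileup of 123, 98 and 124 with Res-shFabp7 and 135, 117 and 136 with Res-ctrl, a difference of -0.254 (limma adjusted p = 0.0529).

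The 23 regions of Uqcrfs1 were unlike those of the other members in number, since the next highest, Cox4i1, had 10. The gene is 5005 bp long, on the minus strand of chromosome 13, and 19 regions lay upstream of its start, toward Dusp22, 114742 bp away, and Irf4, 203916 bp away. Nearness is the only tie of these regions to Uqcrfs1. Its promoter had a pileup of 169, 151 and 179 with Res-shFabp7 and 153, 125 and 175 with Res-ctrl, which overlap. Of its 9 shared regions, 7 had a positive difference in normal score and 2 a negative one, against 47.8% positive over all shared regions, and none passed the test. The region 19822 bp upstream (chr13:30564964-30565294) had 90, 82 and 77 with Res-shFabp7 and 44, 40 and 71 with Res-ctrl, a difference of 0.275 (limma adjusted p = 0.0830). Another, 8814 bp upstream (chr13:30554024-30554222), had 20, 20 and 22 with Res-shFabp7 and 8, 9 and 10 with Res-ctrl, a difference of 0.896 (limma adjusted p = 0.119). In both, every Res-shFabp7 pileup was above every Res-ctrl pileup, and pileup is not adjusted for depth. By normal score the groups did not overlap in this direction at 11.6% of all shared regions.

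**Figure D5:**
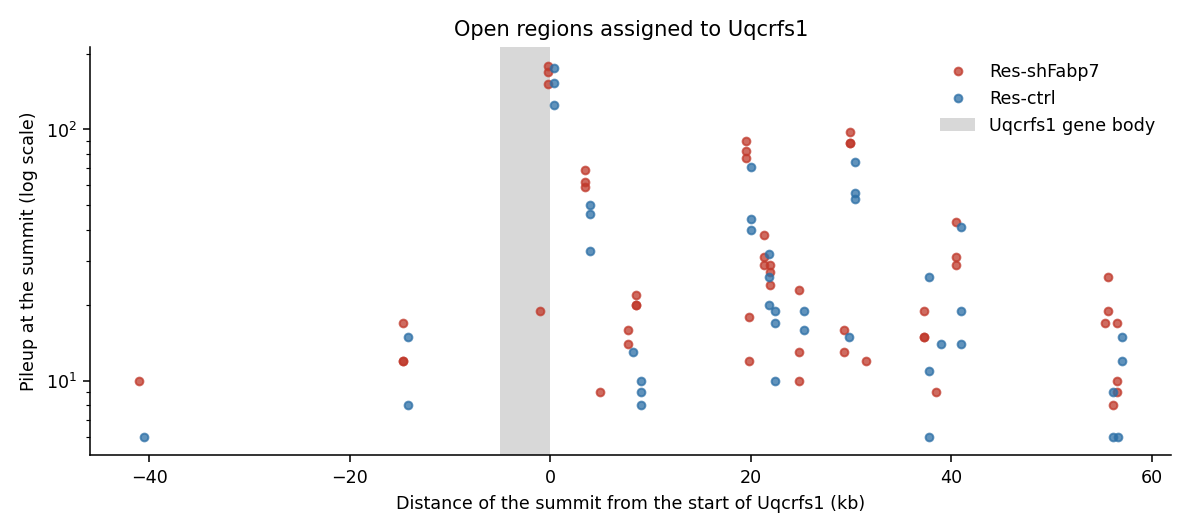
Pileup at the summit (vertical axis, log scale) of the 23 regions assigned to Uqcrfs1 by distance from its start in kb (positive is upstream); points are libraries, Res-shFabp7 drawn slightly left of Res-ctrl, and a library with no peak has no point. The promoter is the tallest, at 151 to 179 with Res-shFabp7 and 125 to 175 with Res-ctrl. At several upstream regions all Res-shFabp7 points lie above the Res-ctrl points, in pileups not adjusted for depth.

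Genes that act on the chain were read from lists of their own. Of 17 regulators of mitochondrial genes and biogenesis, all had a shared region, and 1 of 52 shared regions (1.92%) was called lower with Res-shFabp7, against 1.19% of all shared regions. It was the promoter region of Esrra, with a pileup of 401, 358 and 406 with Res-shFabp7 and 382, 344 and 468 with Res-ctrl, a difference of -0.244 (limma adjusted p = 0.0432). Small regions near Gabpb1 and Polg, the mitochondrial DNA polymerase, were called only with Res-shFabp7, 2 of 137 regions (1.46%, against 2.28% of all). Of 41 electron carriers and assembly factors, 37 had a shared region, and 4 of 109 shared regions (3.67%, against 2.72% of all) were called higher and 3 (2.75%, against 1.19% of all) lower. The higher ones included a region 3811 bp outside Tmem126b, a complex I assembly factor, with 61, 48 and 55 with Res-shFabp7 and 23, 16 and 35 with Res-ctrl (limma adjusted p = 0.00884), and 1 inside Uqcc2, a complex III assembly factor, with 50, 37 and 46 against 12, 15 and 32 (0.0172). Uqcc2 also had a region at its end that was lower, with 50, 43 and 52 with Res-shFabp7 and 55, 50 and 76 with Res-ctrl (0.0271). Cox17, the copper chaperone of complex IV, had a lower region, with 14, 19 and 13 with Res-shFabp7 and 25, 14 and 32 with Res-ctrl (0.0372). The other calls were 1 higher region at Lyrm7 and 1 higher and 1 lower near Ndufaf6. None of these 8 calls in the lists held whenever 1 library was left out. None was made with fold as the height, a setting that called 0 of all 56610 shared regions. Tmem126b lost its call without Res-shFabp7 replicate 1 or 3 (limma adjusted p = 0.0849 and 0.0546) and Uqcc2, inside the gene, without those or Res-ctrl replicate 1 (0.122, 0.0890 and 0.0980). Cox17 kept its call without Res-shFabp7 replicate 2 or Res-ctrl replicate 2 only, and Esrra and the lower Uqcc2 region without Res-ctrl replicate 3 only. The Lyrm7 region and the lower Ndufaf6 region lost theirs without any 1 library, and the higher Ndufaf6 region kept it without Res-shFabp7 replicate 3 only.

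The labelled cell type was checked against markers. All 8 genes of the CD8 T cell list had a shared region, with 174, 174 and 178 peaks with Res-shFabp7 and 156, 142 and 168 with Res-ctrl. The list includes Cd3d, Cd3e and Cd3g, which T cells share in general, so it does not separate CD8 from CD4 T cells. Of 109 shared regions 1 was called higher (0.917%, against 2.72% of all) and 0 lower. It lay inside Themis (chr10:28776613-28777084), with a pileup of 45, 38 and 41 with Res-shFabp7 and 6, 12 and 18 with Res-ctrl. The difference was 1.51 (limma adjusted p = 0.00189), which held without any 1 library. With fold as the height it was not called (limma adjusted p = 0.142). That setting called 0 of all 56610 shared regions, so a call lost there cannot tell 1 region from another. Of 229 regions 1, at an end of Themis, was called only with Res-ctrl, against 0.155% of all regions. Only with Res-shFabp7 there were 3 of the 229 (1.31%, against 2.28% of all). Peaks at 5 B cell genes numbered 21, 16 and 19 with Res-shFabp7 and 12, 10 and 14 with Res-ctrl, and Ms4a1 had no region. Of 7 shared B cell regions 3 were called higher with Res-shFabp7, all at Pax5, against 2.72% of all shared regions. The one that held without any 1 library (chr4:44704383-44704702) had a pileup of 39, 37 and 45 with Res-shFabp7 and 15, 9 and 17 with Res-ctrl, a difference of 1.06 (limma adjusted p = 0.00395). It was not called with fold as the height (limma adjusted p = 0.0936). Peaks at 5 epithelial genes numbered 10, 12 and 10 with Res-shFabp7 and 6, 7 and 5 with Res-ctrl, of which Epcam had 9, 11 and 10 with Res-shFabp7 and 6, 7 and 5 with Res-ctrl, and Krt8 and Sftpc had no region. The 2 CD4 T cell genes both had a shared region, with 19, 19 and 18 peaks with Res-shFabp7 and 18, 15 and 21 with Res-ctrl. Of their 13 shared regions 1 was called lower (7.69%, against 1.19% of all) and 0 higher. It lay at an end of Zbtb7b, with 181, 149 and 184 with Res-shFabp7 and 187, 149 and 248 with Res-ctrl (limma adjusted p = 0.0123). The call was lost without Res-shFabp7 replicate 2 (0.0981) or Res-ctrl replicate 1 (0.0597) and with fold as the height (0.296). In the same order, 5 myeloid genes had 26, 34 and 27 peaks against 24, 24 and 25, and 3 erythroid genes had 5, 5 and 7 against 3, 4 and 5. The CD8 T cell, B cell, epithelial and myeloid counts did not overlap between the groups, and neither did the whole lists. The part of other cells in the results above was not tested. Libraries of mixed cells cannot tell a change in every cell from a change in the share of cells.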

How the data were processed

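Per the submitters' processing notes, MACS2 2.2.7.1, Bowtie 1.1.2, cutadapt 2.8 and Trim Galore 0.6.5 were used with mm10. Whether reads were shifted or duplicates removed is not stated in these sources. Each library has its own deposited peak list, with p and q values as −log10, pileup (coverage signal at the summit) and fold (the ratio of summit to local background). Per the file headers these are each peak's own values, and the read depth of single libraries is unknown.

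Starts and summits in the lists count from 0 and were converted to count from 1. Summits were assigned to RefSeq protein-coding genes of GRCm38.p6. A summit inside several genes went to the gene with the nearest end. Peaks overlapping by at least 1 bp were merged, and a region took the gene of most of its peaks. Promoter sequences are RefSeq's. Of the 88 genes, 71 matched. Those that did not include Cox4i1, Cox4i2, Sdhc, Ndufs1, Uqcrq, Uqcrb, Uqcrc2, Cox6c, Ndufb9, Ndufa2, Ndufa4l2, Cox6a2, Atp5mpl, Atp5a1, Cox8c and Ndufb4c. The values of 1 member gene are not reported here. Heights of regions called in all 6 libraries were compared with limma 3.58.1 in R 4.3.3 (trended variance, all 6 libraries, no covariate, Benjamini-Hochberg adjustment, threshold 0.05). On simulated data for that comparison, 117 of 200 regions changed by 1 in normal score were recovered. Smaller differences, such as most of those at member regions, were not simulated, so their recovery is unknown.

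Members, gene lists and the rule for named regions were chosen with earlier results of these data known. The rule takes called regions, the strongest uncalled ones, regions of 1 group and fixed genes of each complex. Regions chosen after their values were seen are the highest and lowest promoters, the Uqcrfs1 cluster, Cox7a2l, the Ndufb4 region and the examples of shared promoters. Alternatives were stricter q, equal numbers of peaks, other gene distances and merging, other height measures, each library left out and a replicate block. The labels do not say that a shared replicate number pairs libraries.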

Additional observations from a re-analysis of the deposited data

How the results depend on the processing

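The difference in share of peaks was negative in every alternative, at -0.0285 per 1000 against Res-ctrl replicate 3 alone, -0.0649 with equal numbers of peaks and -0.0320 per 1000 peaks near gene ends, a share on another base. The comparisons with replicate 3 alone and near gene ends were added after the data were seen. With 1 library left out it was -0.213 to -0.115. Regions called only with Res-shFabp7 numbered 2 to 4 in the other alternatives and those called only with Res-ctrl 0 to 1. With 1 library left out, which loosens the rule, regions called only with Res-shFabp7 numbered 5 to 13. Over all genes, 3273 regions were called with 1 group only, 1802 with equal numbers of peaks, and 4654 to 7470 with 1 library left out. For heights, 2212 shared regions were called, 797 with −log10 q as the height and 0 with fold (limma, 7771 at an unadjusted p under 0.05), and 444 to 2829 with 1 library left out. Among members, 1 was called (0.676%, against 3.91% of all), and 0 with fold (limma, 17 at an unadjusted p under 0.05). Equal numbers of peaks gave 2 (1.44%, against 4.22%), and quantile-normalised log2 pileup gave 3 (2.03%, against 4.57%). The taller shared regions by mean height gave 3 (3.41%, against 6.11%). With 1 library left out there were 0 to 6, and the 6, without Res-ctrl replicate 3, were 4.05% of members against 5.00% of all. Cox7a2l joined Ndufa10 in each of those counts of 2 or 3. A replicate block gave 2678 regions over all genes (4.73%) and 3 among members (2.03%), at Cox7a2l, Ndufa10 and Ndufs1. Same-numbered libraries had correlations of their deviations of -0.0245, 0.015 and -0.0158, so their heights did not deviate together. The labels do not say whether the number pairs libraries, and these values cannot settle it. The causes were not tested. With 3 libraries a group, a single region's presence cannot reach a p below 0.1, and a missing peak in a shallow list is not a closed region.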
